A study of Mus musculus with 20 samples.

Results

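The comparison described here sets the stem and progenitor fraction of Dnmt3a-/- bone marrow against the megakaryocyte-erythroid progenitors of the same mice. It rests on 6 of the 20 libraries of the series: 3 Dnmt3a-/- LSK libraries and 3 Dnmt3a-/- MEP libraries, chosen by their labels and paired by the mouse that gave both. LSK are Lin-/Sca1+/Kit+ bone marrow cells, and MEP are Lin-/Sca1-/Kit+ cells that are negative for CD34 and low or negative for FCgRII/III. The mice were C57BL/6 and carried conditional *Dnmt3a* alleles that were deleted by *Mx1-Cre*, a recombinase driven by an interferon-inducible promoter and switched on with pIpC. The study describes the *Dnmt3a* deletion in these single knockouts as partial. *Bcor*, the other gene targeted in the series, was intact in these animals. The 3 WT mice of the series, C57BL/6 animals with untargeted genes, gave 6 more libraries. These are used for the comparison of genotypes at the end, for the *Dnmt3a* levels and, in an alternative, for the spread between mice. The Bcor-/- and Bcor-/-Dnmt3a-/- libraries enter only an alternative in which all pairs of the series share the spread. The labels give no age for the Dnmt3a-/- and WT mice. The labels do not say whether the WT mice sequenced received pIpC, while the study describes blood cells of WT controls before and after it. Each mouse contributed 1 LSK and 1 MEP library, so the replicates are the 3 mice. The SE and p-values below come from limma, a moderated test. It draws the spread of a gene between mice towards that of genes of similar level.

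Blood formation starts from hematopoietic stem cells and multipotent progenitors, both of which lie in the LSK gate. MEP are restricted to the red cell and platelet lines, and their erythroid course is set up by the zinc finger factors GATA1 and KLF1, which act on genes of heme synthesis, iron uptake and the red cell membrane. DNMT3A is a de novo DNA methyltransferase whose loss is known to favour self-renewal of stem cells over differentiation.

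Expression was deposited as FPKM, a level scaled to transcript length and sequencing depth, for 24315 genes. LSK and MEP came in separate tables, and how these were scaled against each other is not given in the sources used here, so every level set across the cell types below carries that limit. All differences are LSK minus MEP on the log2(FPKM + 1) scale, taken within each mouse and centred on the median gene of that mouse. A positive value is higher in LSK and a negative value higher in MEP. A gene was called when the limma adjusted p was under 0.05 and the difference exceeded 1.5-fold. The depth of the libraries is unknown, because the files hold no counts.

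The 3 LSK libraries resembled each other, with Pearson r from 0.974 to 0.979 across the 11339 genes tested. The MEP libraries of mice 2 and 3 had an r of 0.989 with each other, and the MEP library of mouse 1 an r of 0.979 with each of them. That of mouse 1 lay nearer to LSK. Its r with the LSK libraries was 0.824 to 0.839, against 0.760 to 0.794 for the MEP libraries of mice 2 and 3. Over the 200 genes with the largest differences towards LSK, its median level was 3.82 FPKM, against 1.31 and 1.48 FPKM in the MEP libraries of mice 2 and 3 and 35.1 to 39.8 FPKM in LSK. It also listed fewer of the tested genes at 0, namely 50 against 117 and 146. Fewer cells of a type and less RNA per cell cannot be told apart in sorted bulk samples, and the part of this library in the results was not tested beyond leaving mouse 1 out. Without mouse 1, 6050 of the 6283 called genes were called in the same direction.

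The targeted gene was measured in every library. *Dnmt3a* was listed at 16.9, 14.0 and 11.3 FPKM in the LSK of mice 1, 2 and 3 and at 5.40, 2.97 and 2.56 FPKM in their MEP. All 3 LSK values lay above all 3 MEP values, and the difference was 1.55 ± 0.13 (limma SE, as after every ± below, n = 3 mice, limma adjusted p = 0.000157). In WT mice the levels were 19.8, 16.1 and 17.2 FPKM in LSK and 6.11, 5.49 and 6.64 FPKM in MEP. A level over the whole gene does not check a deletion that leaves a transcript, so these values do not check the genotype. *Bcor*, which encodes a Polycomb-associated corepressor, was listed at 35.8, 30.1 and 32.0 FPKM in LSK and 23.3, 25.3 and 23.8 FPKM in MEP. Its difference of 0.24 did not pass the test (adjusted p = 0.057).

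Sca1 separates the gates, and MEP were sorted as negative for CD34, so the genes of these proteins check the labels and are no finding. *Ly6a*, which encodes Sca1, was listed at 62.6, 57.4 and 52.7 FPKM in LSK and at 0, 0.386 and 0 FPKM in MEP. *Cd34* was at 573, 650 and 581 FPKM in LSK and at 44.1, 4.46 and 6.08 FPKM in MEP. The MEP value of mouse 1 was the highest of the MEP values and far under every LSK value, and the difference of 5.46 became 6.46 without mouse 1 and 4.82 without mouse 2. *Kit*, on which both gates are positive, was at 184, 171 and 155 FPKM in LSK and 77.9, 68.6 and 62.7 FPKM in MEP. The Fc receptor genes *Fcgr3* and *Fcgr2b* were also higher in LSK, by 1.82 and 2.42. The difference of *Fcgr3* became 2.40 without mouse 1. The markers fixed for LSK (*Ly6a*, *Kit*, *Cd34*, *Flt3*, *Hlf*, *Meis1*, *Mecom*, *Procr*) were all called higher in LSK. Those fixed for MEP other than *Kit* (*Gata1*, *Klf1*, *Epor*, *Zfpm1*, *Gfi1b*) were all called higher in MEP.

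The cell types differed at most of the genes tested. Of 11339 genes tested, 3393 were called higher in LSK (29.9%) and 2890 higher in MEP (25.5%), so that 55.4% were called in either direction. Every count of list members below stands against these shares, and a share near them is no result about the list. Among them 157 were more than 8-fold higher in LSK and 113 more than 8-fold higher in MEP. Centring moved the zero by 0.18, since the median gene was higher in LSK by 0.17 to 0.19 in each mouse before it. The split of the calls depended on that zero: with each library rescaled to the same FPKM total and no centring, 4529 genes were called higher in LSK and 1878 higher in MEP.

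**Figure D1:**
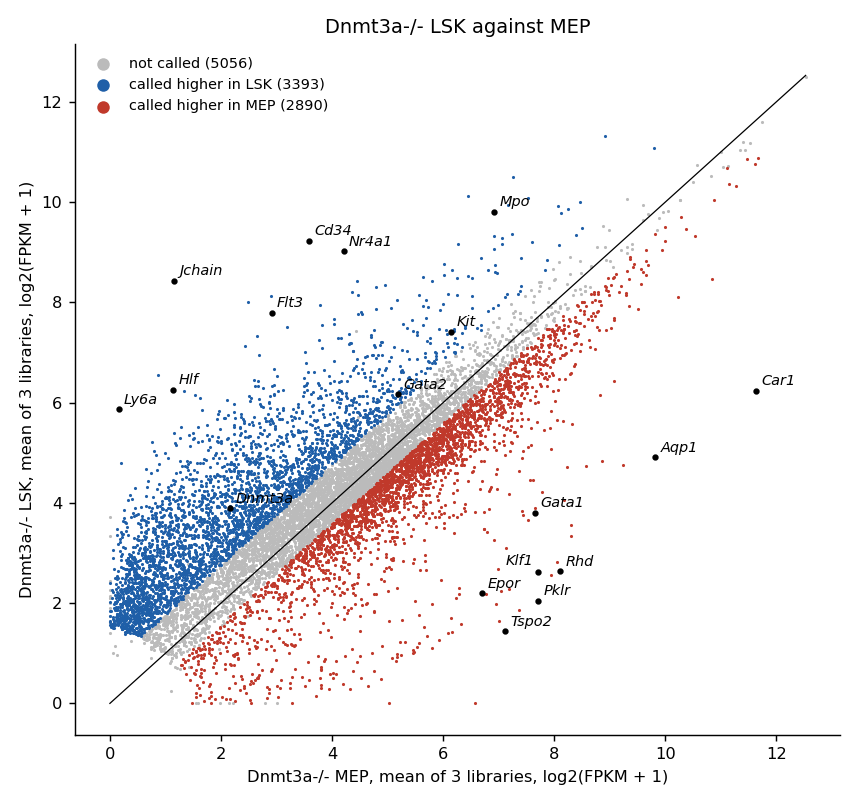
Mean level in the 3 Dnmt3a-/- MEP libraries (horizontal axis) against the mean in the 3 Dnmt3a-/- LSK libraries (vertical axis), both as log2(FPKM + 1), for the 11339 genes tested. Blue points are the 3393 genes called higher in LSK, red points the 2890 called higher in MEP and grey points the rest; the line is equality before centring, and named genes such as *Cd34* and *Klf1* lie in opposite corners.

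The 10 leading genes higher in MEP were *Tspo2*, *Pklr*, *Sphk1*, *Rhd*, *Car1*, *Cldn13*, *Add2*, *Ermap*, *Klf1* and *Mt2*, with differences from -5.86 to -5.15. *Tspo2*, a translocator protein of erythroid cells, was at 1.21, 1.70 and 2.39 FPKM in LSK and at 125, 146 and 145 FPKM in MEP. *Pklr*, the red cell and liver pyruvate kinase, was at 2.89, 3.96 and 2.67 FPKM in LSK and at 191, 247 and 190 FPKM in MEP (difference -5.84 ± 0.07, adjusted p = 3.27e-06). Genes whose libraries overlapped between the cell types were left out of this ranking and of that towards LSK. The lack of overlap in the leading genes is therefore set by the choice. *Car1*, a carbonic anhydrase, reached 2860, 3496 and 3168 FPKM in MEP against 50.6, 97.2 and 83.1 FPKM in LSK. *Sphk1*, which makes sphingosine 1-phosphate, was at 143, 187 and 162 FPKM in MEP and 2.59, 2.54 and 2.80 FPKM in LSK.

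The genes with the largest differences towards LSK were of several kinds. The 10 leading genes were *Jchain*, *Ly6a*, *Gm12191*, *Cd34*, *Adgrl4*, *Ccl3*, *Hlf*, *9030619P08Rik*, *Flt3* and *Nr4a1*, with differences from 7.09 to 4.64. *Jchain*, the joining chain of polymeric immunoglobulin, was at 168, 506 and 477 FPKM in LSK and at 3.52, 0.470 and 0.677 FPKM in MEP. Mouse 1 had the lowest LSK and the highest MEP value, and the difference became 8.12 without it and 6.50 without mouse 2. *Adgrl4*, an adhesion receptor first known from endothelium, was even among the LSK libraries at 258, 249 and 263 FPKM and at 14.0, 1.996 and 2.90 FPKM in MEP. *Ccl3*, a chemokine, was at 308, 331 and 207 FPKM in LSK and 22.0, 3.19 and 3.33 FPKM in MEP. Their differences were 5.34 and 5.03, and 6.06 and 5.78 without mouse 1.

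The promoters of some of these genes carry the letters that GATA factors are known to recognise. The words AGATAA and TGATAA were searched on both strands in the 250 bases before each start in the RefSeq promoter table, build GRCm38.p6. The words differ in the first letter and may overlap each other at an end letter, and a promoter was counted once. Sequences were found for 8699 of the 11339 genes tested. Shown are 4 genes higher in MEP with a word, which are in capitals and read TTATCT or TTATCA where they lie on the reverse strand, and *Hlf*, higher in LSK, with none, each 5′ to 3′ on the strand of the gene. They were picked to show the words and do not stand for their groups: *Mecom*, higher in LSK, has a word, and *Gata1*, *Add2*, *Aqp1* and *Tspo2*, higher in MEP, have none.
Klf1, chr8:84901732-84901981, plus strand: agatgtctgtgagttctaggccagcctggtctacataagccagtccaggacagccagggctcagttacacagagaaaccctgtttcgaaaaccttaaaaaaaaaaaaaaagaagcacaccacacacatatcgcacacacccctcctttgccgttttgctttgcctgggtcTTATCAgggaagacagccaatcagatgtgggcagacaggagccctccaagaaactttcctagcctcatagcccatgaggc
Rhd, chr4:134864286-134864535, plus strand: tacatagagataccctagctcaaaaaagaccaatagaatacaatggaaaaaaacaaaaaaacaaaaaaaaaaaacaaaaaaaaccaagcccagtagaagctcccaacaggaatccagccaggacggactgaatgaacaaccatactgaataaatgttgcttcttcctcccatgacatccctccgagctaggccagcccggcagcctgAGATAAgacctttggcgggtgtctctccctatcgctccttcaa
Ermap, chr4:119189996-119190245, minus strand: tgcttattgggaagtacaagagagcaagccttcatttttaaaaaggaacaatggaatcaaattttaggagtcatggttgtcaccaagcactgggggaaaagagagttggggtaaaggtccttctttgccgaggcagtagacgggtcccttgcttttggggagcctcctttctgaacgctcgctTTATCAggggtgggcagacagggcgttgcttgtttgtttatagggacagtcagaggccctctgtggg
Alas2, chrX:150547167-150547416, plus strand: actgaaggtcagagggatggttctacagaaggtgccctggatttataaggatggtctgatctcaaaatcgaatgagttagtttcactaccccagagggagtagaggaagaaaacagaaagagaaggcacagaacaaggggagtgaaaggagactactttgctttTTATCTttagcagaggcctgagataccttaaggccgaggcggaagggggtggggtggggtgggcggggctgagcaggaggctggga
Hlf, chr11:90390918-90391167, minus strand: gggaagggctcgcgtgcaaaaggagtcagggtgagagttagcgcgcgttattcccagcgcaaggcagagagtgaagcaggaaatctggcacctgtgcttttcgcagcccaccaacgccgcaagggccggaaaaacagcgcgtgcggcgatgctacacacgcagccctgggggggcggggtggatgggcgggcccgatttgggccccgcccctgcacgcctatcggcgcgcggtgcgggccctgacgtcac
The word began 80 bases before the start in *Klf1*, 43 in *Rhd*, 67 in *Ermap* and 86 in *Alas2*. A word was found in 5 of 16 red cell membrane genes (31.2%), 2 of 12 heme synthesis genes (16.7%) and 5 of 24 erythroid transcription factor genes (20.8%) with a sequence, and in 2 of 34 DNA replication genes (5.88%) and 1 of 33 ribosome biogenesis genes (3.03%). Among the lists towards LSK it was found in 1 of 13 stem cell surface genes (7.69%), 2 of 21 stem and progenitor regulators (9.52%) and 0 of 9 primary granule genes. The share was 17.0% of all 27025 promoters, 9.08% of the genes tested, 10.1% of those called higher in LSK and 9.64% of those called higher in MEP. The shares of the called genes were thus close to each other and to that of the genes tested. *Hlf* and the other promoters without a word say only that these letters are absent from this window.

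The erythroid transcription factors did not move as a block. Of 27 tested, 11 were called higher in MEP and 7 higher in LSK, with a median of -0.26 beside -0.002 over all genes. *Klf1*, an activator of globin and membrane genes, was at 194, 226 and 207 FPKM in MEP and at 5.01, 3.94 and 6.84 FPKM in LSK (difference -5.27 ± 0.15, adjusted p = 1.47e-05). *Gata1* was at 180, 215 and 208 FPKM in MEP and at 11.4, 13.7 and 14.0 FPKM in LSK (difference -4.03 ± 0.07). *Gfi1b*, a repressor needed for erythroid and megakaryocytic development, followed at -3.30 and the cell cycle factor gene *E2f4* at -2.26. *Klf3* (-1.96), *Nfia* (-1.90) and *Zfpm1*, which encodes the GATA1 cofactor FOG1 (-1.82), came next. Higher in LSK were *Lmo2*, whose product bridges TAL1 to GATA factors, *Lyl1* and *Nfe2*. *Lmo2* was at 564, 581 and 539 FPKM in LSK against 270, 272 and 268 FPKM in MEP, *Lyl1* differed by 1.07 and *Nfe2* by 0.91. *Tal1* and *Ldb1*, which encode partners of LMO2, were higher in MEP at -1.16 and -0.87, the latter not called with quantile normalization (-0.28). *Gata2*, which precedes *Gata1* in development, was at 74.2, 65.1 and 73.7 FPKM in LSK and 53.8, 27.0 and 30.5 FPKM in MEP, a difference of 0.80 that was 1.07 without mouse 1. *Myb*, at 0.34, and *Bcl11a*, at -0.46, were not called, though *Myb* was with quantile normalization (0.89).

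Nearly the whole set of red cell membrane genes was higher in MEP. Of 25 tested, 24 were called higher in MEP and 1 higher in LSK, with a median of -4.18. The blood group genes *Rhd*, *Rhag*, *Kel* and *Ermap* differed by -5.66, -5.08, -4.61 and -5.42. *Rhd* was at 212, 313 and 312 FPKM in MEP and at 5.08, 6.34 and 4.34 FPKM in LSK. The MEP of mouse 1 had the lowest level of the 3, and the groups did not overlap. The membrane skeleton genes *Add2*, *Ank1* and *Sptb*, coding for adducin, ankyrin and a spectrin chain, differed by -5.53, -4.92 and -4.64. *Slc4a1*, the anion exchanger of the mature red cell, differed less, by -2.19, and stood at 14.4, 19.6 and 19.4 FPKM in MEP. The member higher in LSK was *Slc2a1*, the glucose transporter GLUT1, at 12.99, 10.7 and 11.1 FPKM in LSK and 2.76, 0.692 and 0.934 FPKM in MEP (difference 2.26).

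Most heme synthesis genes were higher in MEP. Of 15 tested, 14 were called higher in MEP and 1 higher in LSK, with a median of -2.60. The first enzyme has a housekeeping and an erythroid form. *Alas1*, the housekeeping form, was the member higher in LSK, at 26.7, 39.8 and 34.9 FPKM against 18.1, 14.7 and 15.1 FPKM in MEP (difference 0.84 ± 0.17, adjusted p = 0.00512). *Alas2*, the erythroid form, was at 6.77, 9.03 and 10.2 FPKM in MEP and 2.45, 1.23 and 1.84 FPKM in LSK (difference -1.96). In both cell types the level of *Alas1* exceeded that of *Alas2*. Of the enzymes that follow, those named here differed by -2.60 (*Alad*), -2.60 (*Uros*), -2.58 (*Urod*), -3.85 (*Cpox*), -1.33 (*Ppox*) and -2.73 (*Fech*). *Cpox*, coproporphyrinogen oxidase, was at 139, 197 and 184 FPKM in MEP and 12.6, 11.5 and 13.9 FPKM in LSK.

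**Figure D2:**
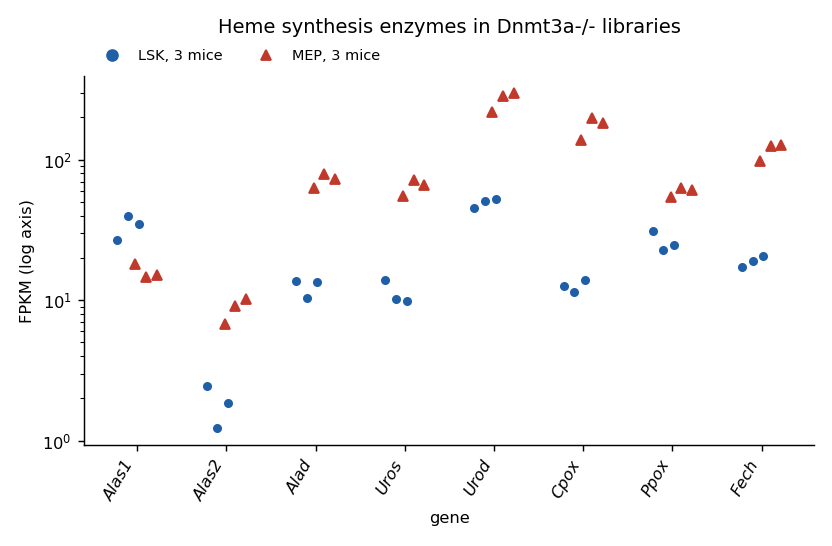
Level of 8 enzyme genes of heme synthesis in pathway order (horizontal axis) in each Dnmt3a-/- library, as FPKM on a log axis (vertical axis). Blue circles are the 3 LSK and red triangles the 3 MEP libraries; *Alas1* is the gene with LSK above MEP, and at every other gene plotted the 3 MEP values lie above the 3 LSK values.

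Of 19 iron uptake and storage genes tested, 11 were called higher in MEP and 3 higher in LSK (median -1.02). *Tfrc*, the transferrin receptor, was at 187, 240 and 251 FPKM in MEP and 37.6, 44.0 and 47.2 FPKM in LSK (difference -2.55). *Steap3*, the reductase that acts on iron after its uptake, and *Slc11a2*, the transporter DMT1, differed by -3.44 and -2.90. The members higher in LSK were *Trf*, the gene of transferrin itself (3.48, with 75.2, 82.0 and 81.6 FPKM in LSK and 11.1, 3.78 and 3.46 FPKM in MEP), and the heme oxygenases *Hmox1* (2.69) and *Hmox2* (0.74). *Hmox1* was uneven in LSK, at 8.54, 22.8 and 37.9 FPKM, with the lowest value in mouse 1. *Slc40a1*, the iron exporter ferroportin, was higher in MEP at -2.52, as were the ferritin genes *Fth1* and *Ftl1* at -1.02 and -0.85, of which neither was called with quantile normalization (-0.55 and -0.45). *Slc25a37* and *Slc25a28*, the mitochondrial iron importers, were not called at 0.42 and 0.46, though both were without centring (0.60 and 0.64).

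Globin levels were modest in the MEP. The 3 globin genes that passed the filter, of 11 in the tables, were all called higher in MEP. *Hba-a1* was at 198, 246 and 216 FPKM in MEP and 32.7, 13.3 and 12.4 FPKM in LSK, and *Hbb-b1* at 142, 188 and 187 FPKM and 45.2, 20.1 and 26.3 FPKM. The LSK of mouse 1 had the highest globin level of the LSK. The differences were -3.75 and -2.70, with *Hbb-b2* at -2.76. The call of *Hbb-b1* was lost when all pairs of the series shared the spread (limma adjusted p = 0.201). Globin genes are near-identical copies whose reads the authors' counting could split, so the level of a single copy is uncertain.

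Of 16 genes of erythropoietin and JAK-STAT signalling, 8 were called higher in LSK and 4 higher in MEP. *Epor*, the erythropoietin receptor, was at 86.6, 119 and 108 FPKM in MEP and 4.01, 2.79 and 4.11 FPKM in LSK (difference -4.69 ± 0.16, adjusted p = 2.44e-05). Among those higher in LSK were *Socs3* (2.72), *Osm* (2.36), *Pim1* (2.03) and *Cish* (1.36), and among those higher in MEP *Gfi1b* and the adaptor gene *Gab1* (-0.76, and not called without centring at -0.57). *Jak2* at -0.44 and *Stat5b* at 0.00 were not called. Among 29 solute carriers and enzymes of erythroid progenitors, which share members with the lists above, 23 were called higher in MEP and 1 higher in LSK (median -2.30). They included *Slc38a5*, an amino acid transporter (-5.13), *Aqp1*, the water channel (-5.09), and the metallothioneins *Mt1* and *Mt2* (-4.03 and -5.15).

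**Figure D3:**
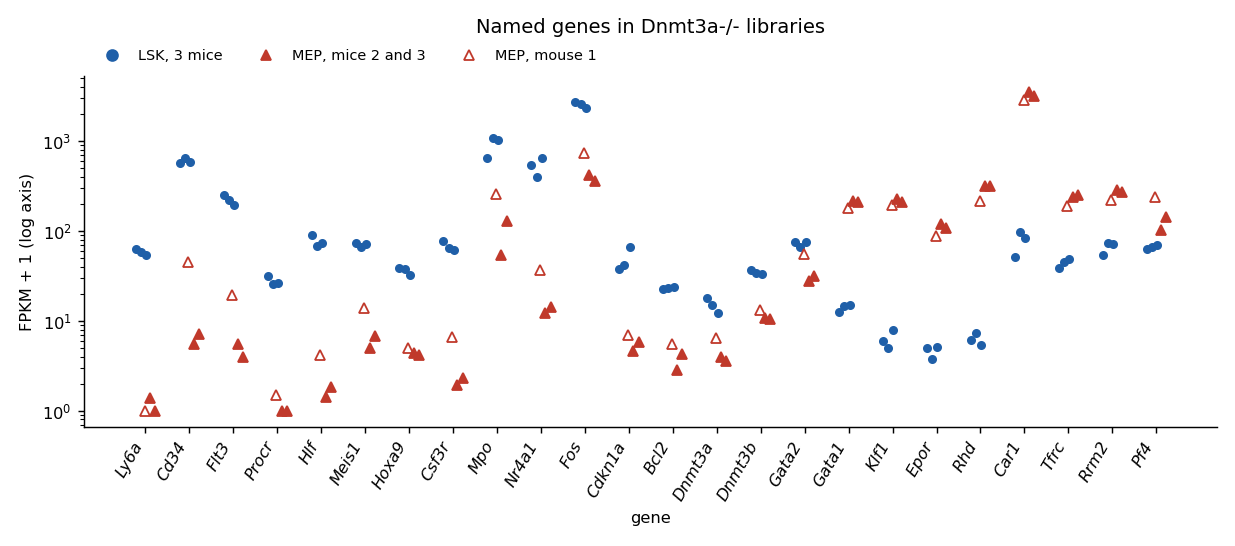
Level of 24 named genes (horizontal axis) in each Dnmt3a-/- library, as FPKM + 1 on a log axis (vertical axis), with blue circles for the 3 LSK libraries, red triangles for the MEP libraries of mice 2 and 3 and open red triangles for the MEP of mouse 1. The open triangle lies above both filled ones for *Cd34*, *Flt3* and *Mpo*, and below both for *Rhd* and *Epor*.

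Most genes of DNA replication and mitosis were higher in MEP. Of 42 DNA replication genes, 37 were called higher in MEP and 0 higher in LSK (median -0.98), against backgrounds of 25.5% and 29.9%. *Rrm2*, the ribonucleotide reductase subunit of S phase, was at 221, 283 and 271 FPKM in MEP and 53.7, 71.9 and 70.2 FPKM in LSK (difference -2.15 ± 0.06). The licensing genes *Cdc6*, *Orc1* and *Cdt1* differed by -2.07, -2.08 and -1.43, and the helicase subunits *Mcm2* to *Mcm7* by -1.29 to -0.71. Not called were *Rfc1*, *Rfc2*, *Pola1*, *Pole* and *Pold3*, between -0.58 and -0.04. Of 30 mitosis genes, 23 were called higher in MEP and 0 higher in LSK (median -0.87). *Plk1*, a mitotic kinase, was at 73.6, 86.6 and 81.6 FPKM in MEP and 25.5, 28.1 and 26.1 FPKM in LSK (-1.74), and *Mki67*, the gene of the Ki67 antigen, differed by -1.03. With quantile normalization across the libraries, 23 of the replication genes and 11 of the mitosis genes were called higher in MEP, and *Mki67* (-0.45) was no longer called. *Kif23*, at 0.46, and *Top2a*, at -0.38, were not called, though *Kif23* was called higher in LSK without centring (0.64). *Pold3* was called higher in MEP without mouse 1 (-0.65).

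The cyclins and their inhibitors differed member by member: 6 of 15 were called higher in LSK and 6 higher in MEP. *Ccne1*, the cyclin of entry into S phase, was at 99.9, 126 and 137 FPKM in MEP and 7.96, 7.88 and 10.2 FPKM in LSK (-3.84), and *Ccnd3* differed by -1.26. *Ccnd1* and *Ccnd2* lay on the other side at 1.42 and 1.28. Of the inhibitors, *Cdkn1a*, which encodes p21, was at 37.0, 41.2 and 65.8 FPKM in LSK and 5.96, 3.57 and 4.84 FPKM in MEP (2.88), *Cdkn1c* differed by 1.49 and *Cdkn1b* by 0.90. *Cdkn2c* was higher in MEP at -0.64, a call that quantile normalization (-0.49) or leaving out mouse 2 (-0.57) ended. The same held without the filter (-0.58), at a mean of at least 5 FPKM (-0.49), without centring (-0.46) and with libraries rescaled to the same FPKM total (-0.36).

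Of 38 ribosome biogenesis genes, 34 were called higher in MEP and 0 higher in LSK (median -1.02). *Mrto4*, *Nhp2* and *Nolc1* led with -1.75, -1.62 and -1.44, and *Npm1*, the nucleophosmin gene, was at 857, 1039 and 1051 FPKM in MEP and 448, 536 and 609 FPKM in LSK. With quantile normalization 20 of these 38 were called. Of 33 genes of mitochondrial protein synthesis and import, 29 were called higher in MEP and 0 higher in LSK (median -1.29), among them *Tomm40* (-1.92), the import channel, and *Hspd1* (-1.72), the chaperonin HSP60. Of 30 genes of purine, pyrimidine and folate synthesis, 19 were called higher in MEP and 3 higher in LSK (median -0.84), and the folate enzyme *Mthfd1* led with -2.71. Of 22 cholesterol synthesis genes, 6 were called higher in MEP and 3 higher in LSK (median -0.29), beside a background of 25.5% and 29.9%. The MEP count depended on the scaling, with 11 of 22 under quantile normalization and 2 with libraries rescaled to the same FPKM total. The LSK-side members included the regulators *Srebf2* and *Insig1*, at 1.03 and 0.84.

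Of 24 glycolysis genes, 11 were called higher in LSK and 5 higher in MEP. Pyruvate kinase was *Pkm* in LSK, at 332, 298 and 346 FPKM against 56.0, 18.3 and 26.2 FPKM in MEP (3.21), while *Pklr* was the MEP form. Of the hexokinases *Hk3* and *Hk2* were higher in LSK (3.46 and 1.98) and *Hk1* in MEP (-1.25). Lactate dehydrogenase was split as *Ldhb* (3.44) against *Ldha* (-1.07), and phosphofructokinase as *Pfkp* (0.99) against *Pfkm* (-1.55). *Gapdh* was listed between 0.295 and 1.57 FPKM and *Eno1* between 1.47 and 8.33 FPKM in the 6 libraries. Every cell uses both genes, so these listed values may be failed estimates, and nothing is read from them. The differences of *Pkm* and *Hk3* became 3.64 and 4.05 without mouse 1.

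**Figure D4:**
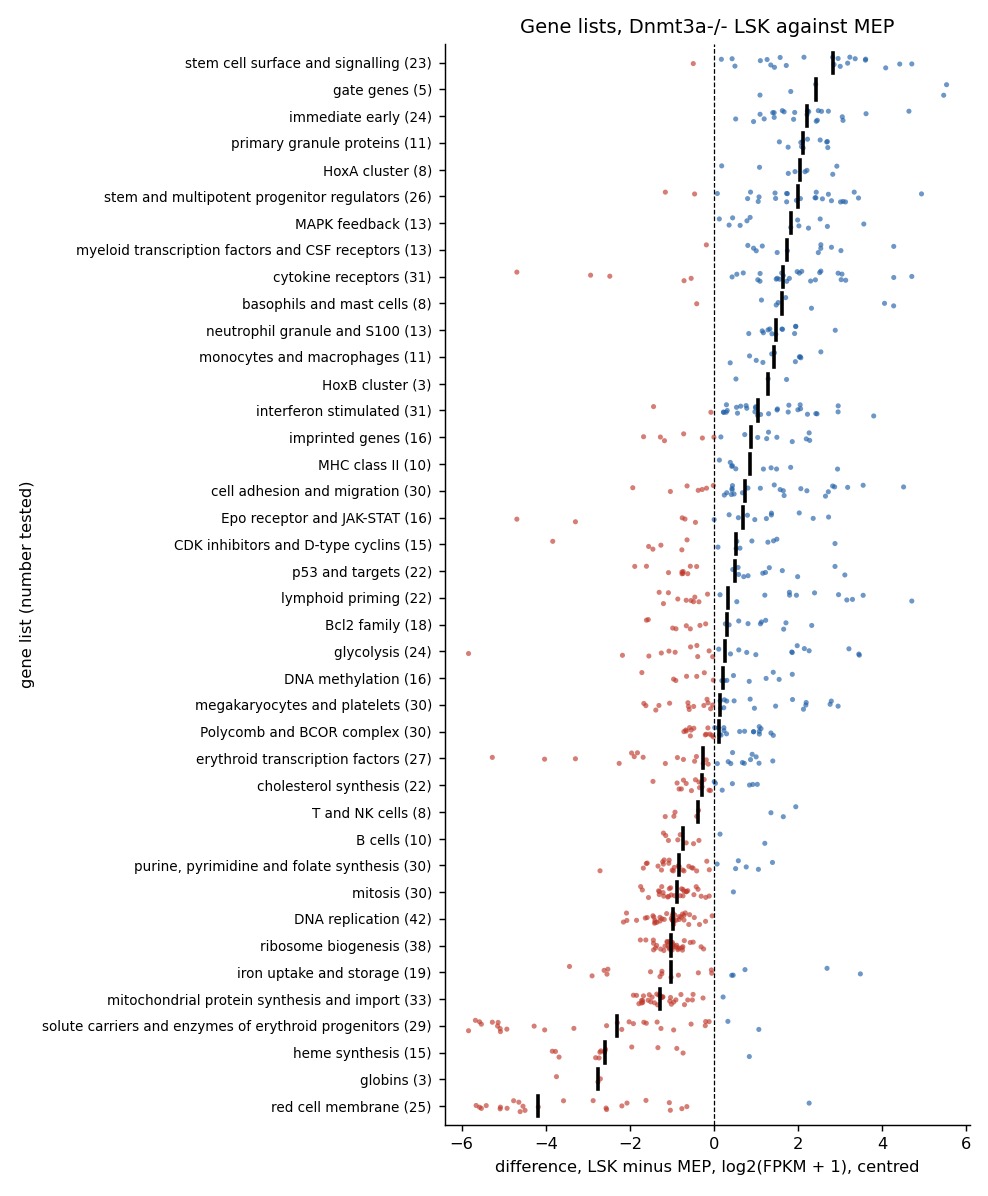
Differences of the tested members of each gene list between Dnmt3a-/- LSK and MEP (horizontal axis, LSK minus MEP on the log2(FPKM + 1) scale), 1 list per line (vertical axis) in order of the median. Each dot is a gene, each black bar the median of the list, and the dashed line is 0; red cell membrane lies at the MEP end with -4.18 and stem cell surface genes at the LSK end with 2.82.

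Of the 40 lists, the stem cell surface list had the highest median towards LSK. Of its 23 surface and signalling genes, 19 were called higher in LSK and 0 higher in MEP (median 2.82). *Procr*, the endothelial protein C receptor found on long-term stem cells, was at 30.9, 24.4 and 25.5 FPKM in LSK and at 0.510, 0 and 0 FPKM in MEP. *Flt3*, the receptor of multipotent and lymphoid-primed progenitors, was at 248, 223 and 196 FPKM in LSK and 18.2, 4.55 and 3.001 FPKM in MEP. *Cd27*, also a progenitor marker, was at 138, 120 and 110 FPKM and 15.0, 3.02 and 3.07 FPKM. The MEP of mouse 1 had the highest MEP value for each of them, and the differences of *Flt3* and *Cd27* were 4.70 and 4.08 with it and 5.31 and 4.66 without. *Esam* differed by 2.82, *Angpt1* by 3.001 and *Cd48*, which marks progenitors beyond the stem cell, by 2.14. *Slamf1*, the CD150 gene, overlapped between the cell types, with 1.69, 3.46 and 3.24 FPKM in LSK and 2.43, 1.68 and 1.63 FPKM in MEP (0.17, adjusted p = 0.548).

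Of 26 stem and multipotent progenitor regulators, mostly transcription factors with RNA-binding proteins such as that of *Zfp36* among them, 23 were called higher in LSK and 1, *Tal1*, higher in MEP (median 2.01). *Hlf*, a leucine zipper factor typical of stem cells, was at 89.4, 66.8 and 72.0 FPKM in LSK and 3.18, 0.412 and 0.816 FPKM in MEP (4.93 ± 0.23, adjusted p = 4e-05). *Erg*, *Mecom* and *Meis1* differed by 3.33, 3.13 and 3.01, and *Runx1* by 1.05. *Nfix*, at 0.08, was not called. Among the *Hoxa* cluster 7 of 8 tested genes were called higher in LSK. The cluster summed to 71.0 to 80.8 FPKM in LSK and 4.84 to 10.3 FPKM in MEP, so several members passed the filter only through LSK. The count is therefore no result about direction, and 2 were called at a mean of at least 5 FPKM. *Hoxa9*, an activator of self-renewal, was at 38.1, 36.8 and 31.0 FPKM in LSK and 4.02, 3.41 and 3.13 FPKM in MEP (2.82). *Hoxa4*, at 0.18, was not called. Of the 10 *Hoxb* genes 3 passed the filter, and *Hoxb3* and *Hoxb4* were called higher in LSK at 1.72 and 1.29. The *Hoxb* genes summed to 8.18 to 11.2 FPKM in LSK and 1.25 to 2.08 FPKM in MEP. Their passing the filter thus rested on LSK, nothing is read from the direction, and 0 were called at a mean of at least 5 FPKM.

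Most cytokine receptors were higher in LSK: 24 of 31 were called so and 4 higher in MEP (median 1.65). *Csf3r*, the G-CSF receptor, was at 77.4, 64.2 and 60.2 FPKM in LSK and 5.67, 0.930 and 1.30 FPKM in MEP (4.27). *Il1r1*, a receptor of interleukin-1, differed by 3.13. The receptors higher in MEP were *Epor*, *Il1rl1* (-2.94), the receptor of IL-33, *Cnr2* (-2.48), a cannabinoid receptor, and *Ifngr1* (-0.71). Of 30 adhesion and migration genes, 16 were called higher in LSK and 3 higher in MEP (median 0.74). *Emb*, embigin, differed by 4.51 (5.20 without mouse 1), and the MEP side was held by *Cd82* (-1.93), *Itga5* (-1.04) and *Cd81* (-0.64). Quantile normalization ended the calls of *Ifngr1* (-0.14) and *Cd81* (-0.04), as did leaving out mouse 1 for *Ifngr1* (-0.58) and mouse 2 for *Cd81* (-0.57).

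Granulocyte genes were higher in LSK, with uneven levels. All 11 primary granule genes tested and all 13 neutrophil granule and S100 genes were called higher in LSK (medians 2.12 and 1.47), of which 8 of the 13 stayed called when all pairs of the series shared the spread. Without mouse 1 the medians were 2.93 and 1.58. *Mpo*, myeloperoxidase, was at 644, 1088 and 1019.8 FPKM in LSK and at 255, 52.7 and 128 FPKM in MEP (2.71 ± 0.52, adjusted p = 0.00417). Mouse 1 had the lowest LSK and the highest MEP level, and the difference was 3.49 without it. *Elane*, neutrophil elastase, was at 222, 437 and 471 FPKM in LSK and 141, 36.5 and 80.2 FPKM in MEP (2.06, and 2.87 without mouse 1). The call of *Elane* was lost without mouse 3, at 1.92 (limma adjusted p = 0.0517), and when the WT pairs shared the spread (limma adjusted p = 0.0510). Its difference was 1.40 without mouse 2, where that of *Mpo* was 1.97. *S100a8* was at 522, 814 and 665 FPKM in LSK and 213, 117 and 136 FPKM in MEP. The primary granule genes in the tables summed to 1477 to 2654 FPKM in LSK and 160.5 to 659.5 FPKM in MEP. The late neutrophil genes *Ngp* and *Ltf* were highest in the LSK of mouse 1 instead: *Ngp* was at 122, 94.8 and 67.7 FPKM and *Ltf* at 39.5, 23.97 and 17.8 FPKM.

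Of 16 monocyte and macrophage genes in the tables, 11 passed the filter, and 9 of these were called higher in LSK (median 1.44). Members near or under 1 FPKM in MEP, such as *Csf1r*, passed the filter through LSK. The count is therefore no result about direction. *Csf1r*, the M-CSF receptor, was at 7.93, 13.1 and 10.6 FPKM in LSK and 1.33, 0.408 and 0.555 FPKM in MEP (2.54). *C1qb*, a complement gene of macrophages, was at 4.14, 8.32 and 19.4 FPKM in LSK and 1.15, 1.70 and 0.631 FPKM in MEP, and *Vcam1* at 4.35, 17.1 and 23.3 FPKM and 1.32, 1.83 and 2.37 FPKM. Both genes were lowest in the LSK of mouse 1, and the difference of *C1qb*, 2.05, was 1.34 without mouse 3. Of 13 myeloid transcription factors and colony-stimulating factor receptors, 12 were called higher in LSK (median 1.75). After *Csf3r* the largest differences were those of *Spi1*, the PU.1 gene (3.02), *Gfi1* (2.79), *Csf1r* and *Cebpa* (both 2.54). Without mouse 1 these became 3.58 for *Spi1*, while *Cebpa* was 3.05. Of 8 basophil and mast cell genes, 7 were called higher in LSK, and *Prss34* and *Mcpt8*, proteases of basophils, differed by 4.27 and 4.05. *Cpa3* was at 34.8, 58.0 and 41.0 FPKM in LSK and 16.0, 4.37 and 4.38 FPKM in MEP (2.32, and 3.04 without mouse 1).

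Of 22 lymphoid priming genes, 10 were called higher in LSK and 5 higher in MEP (median 0.34), beside 29.9% and 25.5% of all genes. *Dntt*, the terminal transferase of early lymphoid progenitors, was at 273, 305 and 266 FPKM in LSK and 74.6, 36.6 and 36.4 FPKM in MEP (2.39). *Satb1* differed by 3.29 and *Notch1* by 3.16. The members higher in MEP were *Tcf3* (-1.31), *Vpreb1*, *Igll1*, *Ebf1* and *Pax5*. All of them but *Tcf3* also stand in the B cell list that follows, as does *Cd79b*, so the 2 lists are not separate results. Of 10 genes of committed B cells, 6 were called higher in MEP and 1, *Cd79b*, higher in LSK, and 3 were called higher in MEP when all pairs of the series shared the spread. *Igll1*, the surrogate light chain gene, was at 34.1, 28.0 and 38.0 FPKM in MEP and 17.4, 17.5 and 16.9 FPKM in LSK (-1.08), and *Vpreb1* differed by -1.20. The B cell genes in the tables summed to 88.0 to 101 FPKM in LSK and 100 to 138 FPKM in MEP, and their part in other differences was not tested.

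The T cell receptor genes *Cd3d*, *Cd3e* and *Cd3g* did not pass the filter of 1 FPKM, whereas *Cd247*, of the same receptor, did and was higher in LSK at 1.35, but was not called with quantile normalization (0.73). Of the 8 T and NK cell genes tested, 3 were called higher in LSK, with *Nkg7* at 151, 196 and 188 FPKM in LSK and 71.1, 22.2 and 39.7 FPKM in MEP, and 3 higher in MEP, with *Il2rb* at -1.16, *Gzma* at -0.95 and *Ncr1* at -0.93. The call of *Gzma* was lost when the WT pairs shared the spread (limma adjusted p = 0.0507) or all pairs did (0.0707). Of 10 MHC class II genes, 5 were called higher in LSK and 0 higher in MEP (median 0.85). The called genes, all of peptide loading, were *H2-Ob* (2.94), *H2-DMa* (1.82), *H2-Oa* (1.49), *H2-DMb1* (1.36) and *H2-DMb2* (1.17). *H2-Aa*, *H2-Ab1*, *H2-Eb1* and *Cd74*, which make the presenting molecule and its chaperone, lay between 0.39 and 0.52 and were not called, but this split did not hold under other settings. Without mouse 1, and with libraries rescaled to the same FPKM total, 9 were called, and with quantile normalization 8 were, *Cd74* (1.06), *H2-Aa* (0.93) and *H2-Ab1* (0.90) among them and *H2-DMb2* not. *H2-DMb2* was not called without mouse 2, at 0.74 (limma adjusted p = 0.0952), or without mouse 3, at 1.11 (adjusted p = 0.0874), nor was *Ncr1*.

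Of 30 megakaryocyte and platelet genes, 10 were called higher in LSK and 6 higher in MEP (median 0.15), near the background of 29.9% and 25.5%. *Pf4*, platelet factor 4, was at 238, 100 and 143 FPKM in MEP and 62.2, 64.7 and 68.0 FPKM in LSK (-1.38 ± 0.24, adjusted p = 0.00248), with its highest level in the MEP of mouse 1. *Vwf*, the von Willebrand factor gene, differed by -1.06, *Gp5* by -1.31 and *P2ry1*, a platelet ADP receptor, by -1.62. On the LSK side were *Nbeal2* (2.79), *F2rl3* (2.76), a thrombin receptor, and *Selp* (2.19). *Itga2b*, the CD41 gene, was at 51.2, 45.7 and 56.4 FPKM in LSK and 60.8, 23.96 and 32.1 FPKM in MEP, which overlapped (0.30, adjusted p = 0.268). Without mouse 1 it was called, at 0.68 (limma adjusted p = 0.000693), as it was with quantile normalization (0.65). *Gp9*, *Gp1bb* and *Ppbp*, at -0.24, -0.08 and 0.14, were not called either.

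The early response genes were far higher in LSK. Of 24 immediate early genes, 23 were called higher in LSK and 0 higher in MEP (median 2.22). *Nr4a1*, an orphan nuclear receptor, was at 537, 403 and 649 FPKM in LSK and 35.7, 11.1 and 13.2 FPKM in MEP (4.64 ± 0.30, adjusted p = 7.73e-05). *Fos* was at 2747, 2589.9 and 2353 FPKM in LSK and 736, 424 and 361 FPKM in MEP (2.22), and *Egr1* at 520, 600 and 605 FPKM and 115, 57.8 and 65.7 FPKM (2.72). *Zfp36*, which degrades short-lived messages, differed by 3.07, *Jun* by 1.67 and *Dusp1* by 1.43. *Myc*, at 0.51, was not called, but it was at 0.60 without mouse 1, 0.70 without centring and 1.05 with quantile normalization, and called in each. These genes are known to respond to handling and sorting, and the part of handling in the differences was not tested. Of 13 genes of MAPK feedback, 10 were called higher in LSK and 0 higher in MEP (median 1.82), led by *Dusp5* (3.56) and *Spry1* (2.70).

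Of 31 interferon-stimulated genes, 22 were called higher in LSK and 1 higher in MEP (median 1.04). *Ifitm1* was at 357, 321 and 358 FPKM in LSK and 45.4, 14.0 and 14.1 FPKM in MEP (3.80), and *Oasl2* and *Gbp2* both differed by 2.95. *Ifit1* was at 2.99, 4.35 and 1.96 FPKM in LSK and under 0.31 FPKM in MEP (1.499), and *Mx1* differed by 0.76, which was 0.08 and not called with quantile normalization, and 0.62 and not called without mouse 2 (limma adjusted p = 0.0663). *Oasl1* was the member higher in MEP, at -1.44. *Irf7*, *Stat2* and *Irf9*, the regulators, lay at 0.56, 0.31 and 0.29 and were not called, though *Irf7* was without mouse 2 (0.70) or without centring (0.74), and all 3 were with libraries rescaled to the same FPKM total (0.90, 0.63 and 0.60).

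Of 16 genes of DNA methylation, 5 were called higher in LSK and 4 higher in MEP (median 0.21), near the background of 29.9% and 25.5%. *Dnmt3b*, the other de novo methyltransferase, was at 36.0, 32.7 and 32.1 FPKM in LSK and 12.3, 9.74 and 9.58 FPKM in MEP (1.41 ± 0.09), beside 1.55 for *Dnmt3a*. The demethylating oxygenases *Tet1* and *Tet2* were higher in LSK by 1.86 and 1.24, while *Tet3*, at 0.19, was not called. *Uhrf1*, the maintenance cofactor, was at 125, 153 and 144 FPKM in MEP and 87.8, 72.0 and 84.6 FPKM in LSK (-0.96, and -0.38 and not called with quantile normalization). *Dnmt1*, the maintenance enzyme, had a difference of -0.41, which did not reach 1.5-fold and was 0.19 with quantile normalization. The methyl-CpG binding *Mbd2* differed by -1.72.

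Of 30 Polycomb and BCOR complex genes, 10 were called higher in LSK and 3 higher in MEP (median 0.12), beside 29.9% and 25.5% of all genes. The LSK side held *Cbx7* (1.41), *Phc1* (1.35) and *Pcgf5* (1.12), subunits of PRC1, and *Ezh1* (0.94), while the MEP side held *Ezh2* (-0.66), the methyltransferase of dividing cells, *Usp7* (-0.67) and *Ring1* (-0.72). *Pcgf1* and *Kdm2b*, partners of BCOR, lay at -0.19 and -0.58, and *Bmi1* at 0.10; *Kdm2b* was called without mouse 1 (-0.64) or mouse 3 (-0.59). The 3 calls on the MEP side depended on the scaling: none held with each library rescaled to the same FPKM total, and with quantile normalization *Ezh2* stood at -0.07 and *Usp7* at -0.16. *Ring1* was at -0.55 and not called without mouse 2. Without mouse 1 the number called higher in MEP was 5. Of 16 imprinted genes tested of 39 in the tables, 9 were called higher in LSK and 4 higher in MEP, with *Mcts2* (2.27) and *Sgce* (2.26) on the LSK side and *Grb10* (-1.68) and *Igf2r* (-1.28) on the MEP side.

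Of 18 *Bcl2* family genes, 8 were called higher in LSK and 5 higher in MEP, beside 29.9% and 25.5% of all genes. *Bcl2* was at 21.3, 22.5 and 22.8 FPKM in LSK and 4.58, 1.85 and 3.28 FPKM in MEP (2.32 ± 0.21), and *Mcl1* at 253, 301 and 298 FPKM and 83.5, 68.8 and 74.7 FPKM (1.71). Both proteins protect from apoptosis. The effectors *Bax* and *Bak1* were higher in MEP, by -1.61 and -0.98, the latter not called with quantile normalization (-0.57), whereas *Bok*, a related effector, was higher in LSK by 1.66. Higher in LSK too were *Bnip3* and *Pmaip1*, whose products favour cell death, by 1.13 and 0.81, the latter not called without mouse 2 (0.43) or mouse 3 (0.84). *Pmaip1* was also not called with quantile normalization (0.22), without the filter (0.87) or when all pairs of the series shared the spread. *Bcl2l1*, whose product BCL-XL protects late erythroid cells, was not called at 0.36. Of 22 genes of p53 and its targets, 9 were called higher in LSK and 8 higher in MEP, beside the same shares of all genes. *Plk2* (3.11) and *Cdkn1a* led the LSK side, *Gadd45a* (-1.89) and *Bax* the MEP side, and *Trp53* itself differed by -0.62, but by -0.03 with quantile normalization.

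The LSK-to-MEP difference of Dnmt3a-/- mice was compared with that of the 3 WT mice, which share no library with them. Across 11369 genes the differences of the 2 genotypes followed each other, with r = 0.965 across genes, which are not independent replicates. Of the 6283 called genes, 15 had the opposite sign in WT. With limma, 0 genes passed an adjusted p of 0.05 for a difference between the genotypes, and the smallest adjusted p was 0.375. At an unadjusted p under 0.05 there were 996 genes (8.76%), of which 140 (1.23%) also exceeded 1.5-fold, 85 with a larger and 55 with a smaller value in Dnmt3a-/-. *Klf1* differed by -5.27 in Dnmt3a-/- and -5.18 in WT, *Gata1* by -4.03 and -4.18, and *Flt3* by 4.70 and 3.82.

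**Figure D5:**
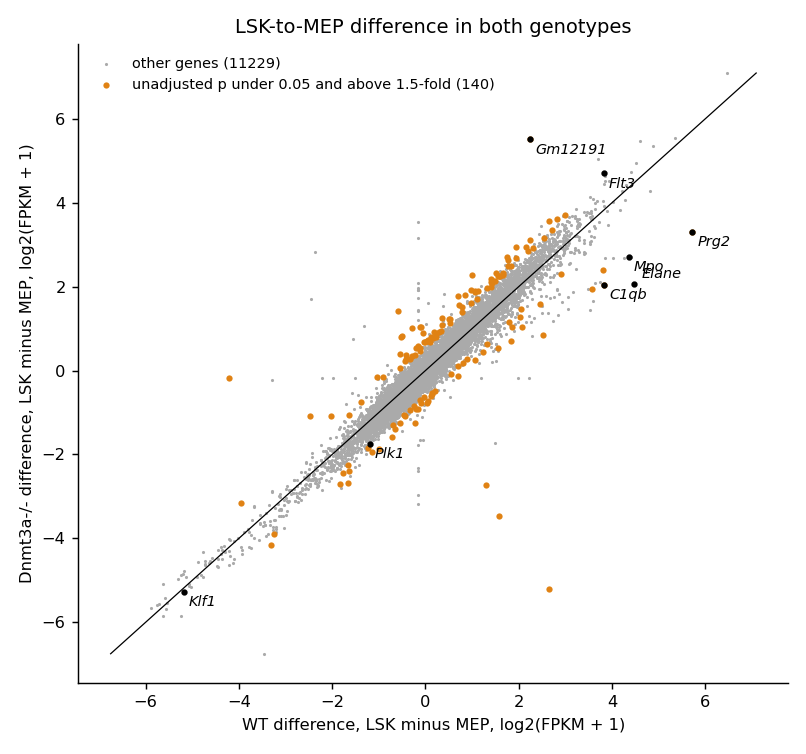
LSK-to-MEP difference in WT mice (horizontal axis) against that in Dnmt3a-/- mice (vertical axis), both as LSK minus MEP on the log2(FPKM + 1) scale and the mean of 3 mice, for 11369 genes. Orange points are the 140 genes with an unadjusted p under 0.05 and more than 1.5-fold between the genotypes, of which 0 passed after adjustment, and the line is equality.

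The genes named by size among those with an unadjusted p under 0.05 were mostly low or listed at 0. *Gm12191*, an annotated gene model, was at 62.0, 121 and 107 FPKM in the LSK of Dnmt3a-/- mice. Their MEP had 0.837, 0.00128 and 2.30 FPKM, while WT MEP had 27.1, 17.5 and 6.67 FPKM. Its LSK-to-MEP difference of 5.51 became 4.87 without mouse 2, and the difference between genotypes was 3.27 ± 0.55 (limma adjusted p = 0.414). *Prg2*, an eosinophil granule protein gene, was at 11.2, 12.5 and 14.3 FPKM in Dnmt3a-/- MEP and at 2.48, 1.505 and 4.21 FPKM in WT MEP, and its difference of 3.31 stood against 5.72 in WT (adjusted p = 0.414). *C1qb* differed by 2.05 against 3.83 (adjusted p = 0.550). *LOC100503496*, *Klra8* and *Gm35612* stayed under 6 FPKM in every one of the 12 libraries. *Snora21*, *Mir703*, *Snora16a* and *Snora78* are short RNAs that were listed at 0 in most libraries, and no fold is given for them.

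Lists were set side by side in the same way, with no gene passing the adjusted test. The median of the 11 primary granule genes was 2.12 in Dnmt3a-/- and 3.65 in WT, and that of the 13 neutrophil granule and S100 genes was 1.47 and 2.73. Without mouse 1 of the Dnmt3a-/- mice the first median was 2.93. In all of these genes the value was smaller in Dnmt3a-/-, against 50.7% of all genes. Of them 0 had an unadjusted p under 0.05, against 8.76%. Genes of a list are not independent replicates. The neutrophil genes summed to 11061 FPKM in the WT LSK of mouse 2, against 2181 and 2419 FPKM in the WT LSK of the other mice against 1640.4 to 1979 FPKM in the LSK of Dnmt3a-/-. In the MEP the primary granule genes summed to 160.5 to 659.5 FPKM in Dnmt3a-/- and 46.7 to 282 FPKM in WT. *Mpo* and *Elane* differed between genotypes by -1.65 and -2.41 (adjusted p = 0.648 and 0.575). Of 24 immediate early genes, 22 had a larger value in Dnmt3a-/-, against 49.3% of all genes, and 6 had an unadjusted p under 0.05, against 8.76%, with medians of 2.22 and 1.67. Of 42 DNA replication genes, 38 had a smaller value in Dnmt3a-/-, against 50.7% of all genes, 10 had an unadjusted p under 0.05, and the medians were -0.98 and -0.78. *Rrm2* differed by -2.15 in Dnmt3a-/- and -1.76 in WT, and *Plk1* by -1.74 and -1.20 (adjusted p = 0.541 and 0.414). For the red cell membrane genes the medians were -4.18 and -4.11.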

How the data were processed

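RNA of sorted bone marrow cells was sequenced in 20 libraries, and the 6 of Dnmt3a-/- and 6 of WT were used. The Bcor-/- and Bcor-/-Dnmt3a-/- libraries served only in the alternative in which all pairs of the series shared the spread. Reads were aligned by the authors with STAR 2.5.1b to the mm9 build and handled with SAMtools 1.9, and the FPKM were made with Cufflinks 2.2.1, as the submitters' processing notes name these tools. The authors deposited FPKM per gene, in 1 table for LSK and 1 for MEP. The tables hold no counts, so depth and its precision are unknown. Columns were assigned to samples by name.

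Genes whose mean over the libraries compared reached 1 FPKM were kept, and a pseudocount of 1 was added before log2. The LSK-minus-MEP difference of each mouse was centred on its median and tested with limma 3.58.1 (mean-variance trend, Benjamini-Hochberg adjustment, R 4.3.3). Calls needed an adjusted p under 0.05 and above 1.5-fold. The same mouse gave both libraries of a pair by the labels; the deviations of the LSK and MEP of mice 1, 2 and 3 from their group means had correlations of 0.184, 0.00465 and 0.0956. For genotypes, the differences of 3 Dnmt3a-/- and 3 WT mice were compared. The procedure was tested on simulated data, and no outcome of that is reported here. Genes named included the 10 with the largest called difference in each direction. These needed a mean of at least 5 FPKM in the higher cell type and no overlap between the LSK and MEP libraries. Also named were the 5 in each direction with the largest unadjusted difference between genotypes, and members of 40 lists. The lists hold 843 genes, of which 733 were tested and 65 stand in more than 1 list. The members, lists and tests were chosen with earlier results of these data known. Promoters came from the RefSeq table, and none of its coordinates was set against mm9. Alternatives varied the pseudocount, filter, scaling, trend, adjustment, fold, pairing and the pairs sharing the spread, and left out each mouse. Against WT, pairs were left out by replicate number. Some members of the lists are not reported here by name.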

Additional observations from a re-analysis of the deposited data

How the results depend on the processing

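The 3393 genes called higher in LSK and 2890 higher in MEP became 3389 and 2890 with no replicate block, and the pairing changed neither that split nor the 0 calls against WT. Leaving out 1 mouse gave 3276 to 3427 and 2834 to 2986. A fold above 2 left 2335 and 1459. The split followed the zero of the scale: 54.0% of the calls were higher in LSK as reported, 65.1% without centring (4028 and 2164) and 70.7% with each library rescaled to the same FPKM total (4529 and 1878). Against WT, unadjusted p gave 85 larger and 55 smaller values. Leaving out 1 replicate number in that comparison gave 0 to 1 in each direction, both without number 3: *Snora21* and *Snord16a*, short RNAs listed at 0 in most libraries. *Snora21* was listed at 0 in every Dnmt3a-/- library, so its change came from leaving out the WT pair of that number.

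Counted for each list in the direction of more calls, 576 counts over the lists and alternatives stayed within 1.5 times and 24 did not; the cause was not tested except where fewer genes were tested. With a mean of at least 5 FPKM fewer genes were tested, and calls were 2 (HoxA), 0 (HoxB), 1 (T and NK) and 4 (*Bcl2* family). MHC class II had 8 without centring, 8 with quantile normalization, 9 with the rescaling and 9 without mouse 1. Quantile normalization gave 23 (replication), 11 (mitosis), 4 (*Bcl2* family), 11 (cholesterol) and 20 (ribosome biogenesis). A fold above 2 gave 3 (B cells), 6 (Polycomb), 18 (replication), 14 (mitosis), 11 (purine), 1 (cholesterol) and 20 (ribosome biogenesis). With all pairs sharing the spread B cells had 3 and neutrophil granule 8. With the rescaling mitosis had 15 and cholesterol 2.

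Named genes kept direction and call in 3388 cases, lost the call in 92, gained it in 55 and reversed in 24, none of the reversed ones called as reported. *Stat5b* was -0.012 with a pseudocount of 0.1 and -0.029 to 0.061 when 1 mouse was left out. *Rfc2* was 0.021 without a filter, 0.11 at 5 FPKM, 0.14 without centring, 0.54 with quantile normalization, 0.25 with the rescaling and -0.088 to 0.0013 when 1 mouse was left out. *Gp1bb* was 0.10 without centring, 0.040 without mouse 1, 0.19 without mouse 2 and 0.19 with the rescaling. Under quantile normalization *Dnmt1* was 0.19, *Hoxa4* -0.42, *Pola1* 0.028, *Ppbp* -0.55, *Rfc1* 0.20, *Slamf1* -0.47 and *Top2a* 0.18. *Slamf1* was -0.024 without mouse 2. With the rescaling *Gp9* was 0.049, *Pcgf1* 0.11 and *Rfc1* 0.094. Without counts, low genes cannot be given a counting error.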
